A study of Mus musculus with 6 samples.

Results

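The 10 genes described here, Mmp2, Mmp3, Mmp8, Mmp9, Mmp10, Mmp11, Mmp12, Mmp13, Mmp14 and Mmp19, encode matrix metalloproteinases (MMPs). They were taken by symbol from a count table of 24391 genes, and all 10 were found. RNA was sequenced from brachiocephalic arteries of 3 Col15a1 -/- (KO) and 3 wild type (WT) mice, 1 library per animal. Both groups had a C57BL/6 background and were fed a Western diet for 18 weeks, and the tissue is labelled as atherosclerosis lesion holding a mixture of cell types. The series title calls the deletion specific to smooth muscle cells. The genotype label of KO animals gives Col15a1 -/- alone, and the labels used here name no Cre driver, no Apoe genotype, no age and no sex.

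MMPs are zinc endopeptidases that cut collagens, elastin, proteoglycans and other matrix proteins outside the cell. Most are secreted as inactive precursors, become active when a propeptide is removed, and are held in check by tissue inhibitors of metalloproteinases (TIMPs). In arteries they are known from macrophages, smooth muscle cells and fibroblasts, and they act in plaque growth, in the breakdown of the fibrous cap and in the remodelling of the vessel wall.

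Total gene counts per library were 22223584 to 26982005. Levels are given as RPKM, which is reads per kilobase of exon scaled to the size of the library (TMM), so that genes of different length can be compared, or as CPM, which has the same scaling without the length. Col15a1 was at 193, 198 and 91.0 CPM in KO 1, KO 2 and KO 3 and at 574, 407 and 501 CPM in WT 1, WT 2 and WT 3, so it was lower in every library labelled KO, with reads left in each (log2 fold change -1.62 (SE 0.33)). Its edgeR adjusted p was 0.587 and its DESeq2 adjusted p 0.00224, so the edgeR test used below did not call the deleted gene either. KO 3 and WT 2 stood apart from the rest in nerve markers. The summed level of 7 sympathetic nerve markers was 2013 RPKM in KO 3 and 940.3 RPKM in WT 2, against 83.1 to 109 RPKM in the other 4 libraries. The ribosomal transcript Rn45s took 10.4% of counts in KO 3 and 2.04% in WT 2, the highest and the lowest share of the 6 libraries. It took 8.13%, 6.77%, 6.25% and 9.57% in KO 1, KO 2, WT 1 and WT 3. By this share WT 2 stood apart, whereas KO 3 was close to WT 3. Results are therefore also given without KO 3, or without both, and the part of these libraries' make-up in the MMP values was not tested. In an artery sampled whole, fewer cells of a type and less RNA per cell cannot be told apart.

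The artery held a wide range of MMP transcript levels. Mmp3 was the highest of the 10 genes in each of the 6 libraries, and Mmp3, Mmp12, Mmp2 and Mmp14 together made up 92.9% to 93.9% of the summed RPKM of the 10 genes in KO and 88.3% to 93.0% in WT. With at least 10 counts in each library as the limit for detection, 9 of the 10 were detected. Mmp10 was classed as low, since KO 3 had 8 counts. None of the 10 was at 3 counts or fewer in every library, the limit for genes not detected. In KO the order of mean RPKM was Mmp3 (169 ± 81.9, SD, n = 3), Mmp12 (91.9 ± 71.1), Mmp2 (89.2 ± 23.5), Mmp14 (44.6 ± 19.6), Mmp19 (12.2 ± 6.17), Mmp13 (8.77 ± 6.83), Mmp11 (4.25 ± 0.398), Mmp9 (1.26 ± 0.253), Mmp8 (0.644 ± 0.487) and Mmp10 (0.444 ± 0.238). In WT it was Mmp3 (318 ± 60.5, SD, n = 3), Mmp12 (141 ± 51.1), Mmp2 (137 ± 9.50), Mmp14 (82.5 ± 5.44), Mmp13 (37.4 ± 23.6), Mmp19 (21.8 ± 0.745), Mmp11 (5.26 ± 0.732), Mmp8 (1.26 ± 0.201), Mmp10 (1.14 ± 0.470) and Mmp9 (0.990 ± 0.163). Among neighbours in the KO order, only Mmp2 and Mmp14, Mmp14 and Mmp19, and Mmp11 and Mmp9 had ranges that did not overlap. In the WT order this held for Mmp3 and Mmp12, Mmp2 and Mmp14, Mmp14 and Mmp13, Mmp19 and Mmp11, and Mmp11 and Mmp8. The ranges of all other neighbours overlapped. Compared within each library, Mmp3 was still above Mmp12, and Mmp19 above Mmp13, in KO 1, KO 2 and KO 3. The order of the remaining overlapping neighbours changed between libraries of the same group.

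**Figure D1:**
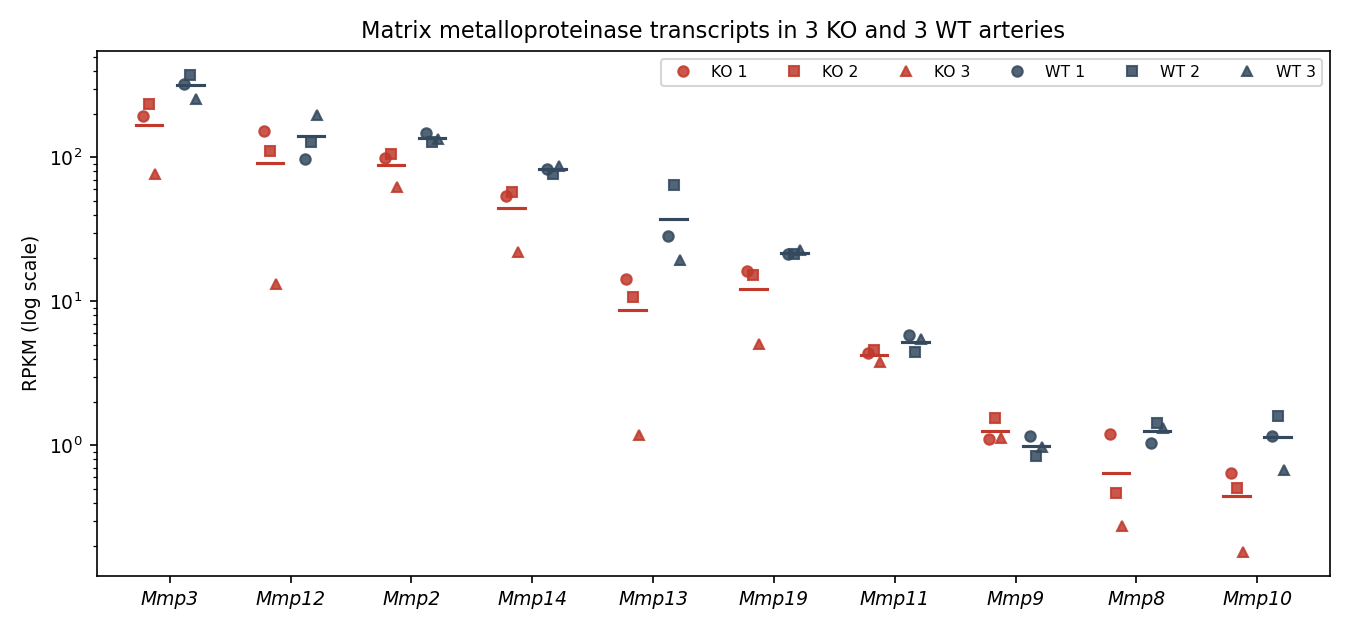
RPKM (log scale) of the 10 MMP genes in each library, KO left of WT for every gene, ordered by mean over the 6 libraries; circles, squares and triangles are libraries 1, 2 and 3 of each group, and bars are group means. KO 3 is the lowest of the 6 libraries for 9 of the 10 genes, and Mmp9 is the exception.

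Most of the 10 MMP transcripts had lower values in KO than in WT, and no difference passed the test over all genes. The 10 genes and the gene lists below were chosen with earlier results of these data known, so counts over them describe and do not test. Among other MMP genes 8 were tested, 5 with positive and 3 with negative log2 fold changes. Of the 10 genes, 9 had a log2 fold change (KO over WT) below 0, and the median was -0.86, whereas 39.1% of the 15937 genes tested were negative, with a median of 0.07. In 6 of the 10 (Mmp2, Mmp3, Mmp10, Mmp13, Mmp14 and Mmp19) every KO library was below every WT library, which held for 8.38% of all genes tested, and in 0 of the 10 was every KO library above every WT library (8.33% of all genes). By edgeR's quasi-likelihood test with Benjamini-Hochberg adjustment 0 of 10 passed, and so did 0% of all genes in either direction. At an unadjusted p under 0.05 the count was 3 of 10 lower (Mmp2, Mmp10 and Mmp14) and 0 higher, beside 3.98% of all genes lower and 4.02% higher. DESeq2 called none of the 10, while it called 0.151% of genes lower and 0.197% higher, and limma-voom called 0 of the 10 and 0% of all genes.

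The size of these differences moved with single libraries. Without KO 3 the negative count stayed at 9 of 10, with a median of -0.52, beside 50.5% of all genes. Without WT 2 and KO 3 it was 9 of 10 with a median of -0.48, beside 49.5%. The genes with every KO library below every WT library then numbered 6 and 7 of 10 in this order, while the share of all genes was 14.6% and 20%. Unadjusted p under 0.05 with lower values was found for 5 and 6 of 10 (4.51% and 5.84% of all genes), but for 0 of 10 without WT 2 (2.24% of all genes), where 9 of 10 were negative (42.1% of all genes) and the median was -0.82. None of the 10 passed after adjustment in any of these fits.

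**Figure D2:**
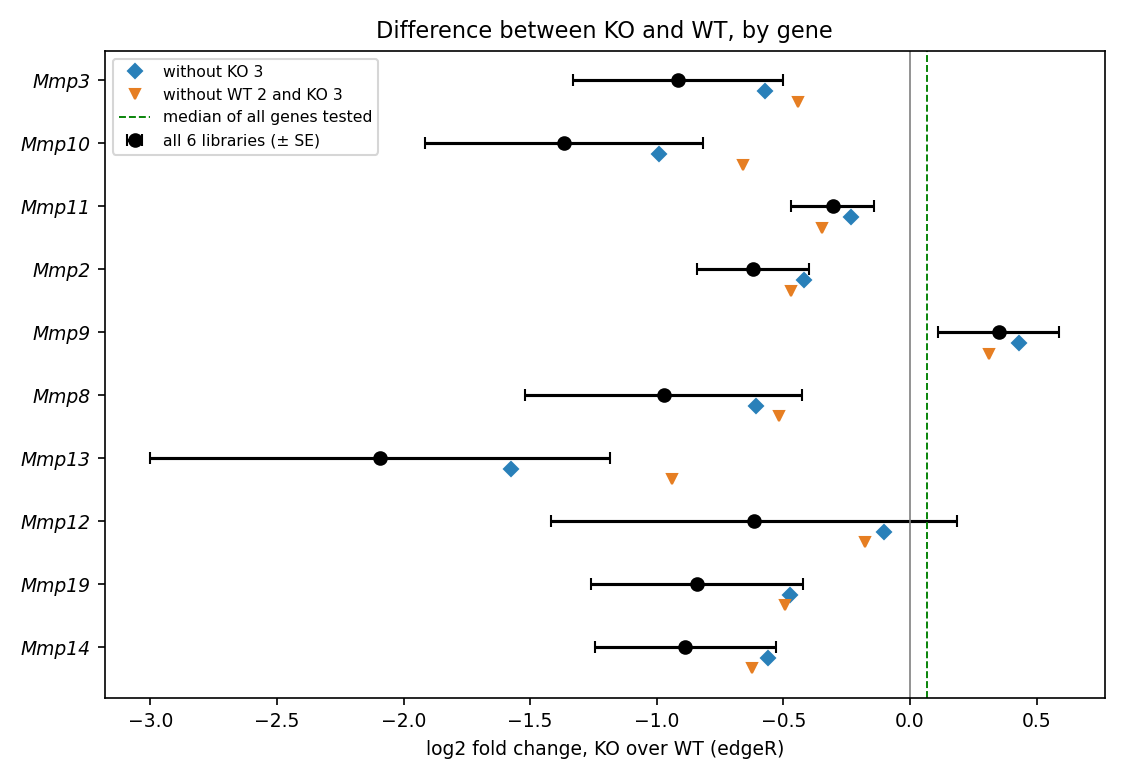
Log2 fold change of each MMP gene, KO over WT, from edgeR with all 6 libraries (black, bars are ± 1 SE), without KO 3 (blue) and without WT 2 and KO 3 (orange); the dashed line is the median of all genes tested. All points but those of Mmp9 lie below 0, and those of Mmp13 and Mmp10 move most when WT 2 and KO 3 are left out.

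The stromelysins are broad-range proteases that cut proteoglycans, laminin and fibronectin and can activate other pro-MMPs. Mmp3 (stromelysin-1, chromosome 9, 7445822 to 7455974, mm9) was at 193, 236 and 77.3 RPKM in KO 1, KO 2 and KO 3, against 323, 376 and 255 RPKM in WT 1, WT 2 and WT 3. All KO libraries were below all WT libraries, with WT 2 at the high end and KO 3 at the low end. The log2 fold change was -0.92 (SE 0.42), with an edgeR adjusted p of 0.643, moving to -0.57 when KO 3 was left out and to -0.44 when WT 2 was left out as well. Mmp10 (stromelysin-2, chromosome 9, 7502342 to 7510242), the nearest relative of Mmp3, was at 0.647, 0.503 and 0.182 RPKM in KO 1, KO 2 and KO 3, against 1.15, 1.61 and 0.669 RPKM in WT 1, WT 2 and WT 3. These levels came from few reads, namely 26, 20 and 8 counts in KO 1, KO 2 and KO 3, and 44, 83 and 30 counts in WT 1, WT 2 and WT 3. The groups did not overlap, but KO 1 and WT 3 were close, with exact Poisson 95% intervals of 16.98 to 38.1 and 20.2 to 42.8 counts, which cover counting error only. Its log2 fold change was -1.37 (SE 0.55), with an edgeR adjusted p of 0.617, and -0.66 without WT 2 and KO 3. Mmp3 and Mmp10 share sequence: 8.39% of the 50-base words in Mmp3 transcripts were found in transcripts of Mmp10 or Gm15244, and 8.37% of those of Mmp10 were found in Mmp3. Reads that aligned to several places were left out of the counts, and how many of them came from Mmp3 or Mmp10 was not tested, so both levels are uncertain. Mmp11 (stromelysin-3, chromosome 10, 75385967 to 75395247), which is unlike the others activated inside the cell by furin, was at 4.37, 4.58 and 3.81 RPKM in KO 1, KO 2 and KO 3, against 5.84, 4.44 and 5.49 RPKM in WT 1, WT 2 and WT 3. KO 2 was above WT 2, so the groups overlapped, and the log2 fold change was -0.31 (SE 0.16), with an edgeR adjusted p of 0.688.

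The gelatinases cut denatured collagen and the type IV collagen of basement membranes. Mmp2 (gelatinase A, chromosome 8, 95351227 to 95377319), made mainly by smooth muscle cells and fibroblasts, was at 99.7, 106 and 62.3 RPKM in KO 1, KO 2 and KO 3, against 147, 129 and 135 RPKM in WT 1, WT 2 and WT 3. No KO library reached the lowest WT library, and the WT values lay within a 1.15-fold range. The log2 fold change was -0.62 (SE 0.22), with an edgeR adjusted p of 0.589, and it was -0.42 without KO 3. Mmp9 (gelatinase B, chromosome 2, 164773719 to 164781349), a protease of macrophages and neutrophils, was the only one of the 10 with a positive log2 fold change, 0.35 (SE 0.24). Its level was 1.11, 1.55 and 1.12 RPKM in KO 1, KO 2 and KO 3, against 1.16, 0.837 and 0.974 RPKM in WT 1, WT 2 and WT 3. KO 1 and KO 3 lay below WT 1, so the groups overlapped, and the edgeR adjusted p was 0.766. The counts were 82, 113 and 90 in KO 1, KO 2 and KO 3 and 81, 79 and 80 in WT 1, WT 2 and WT 3. Mmp9 was thus at 0.837 to 1.55 RPKM over the 6 libraries, against 62.3 RPKM or more of Mmp2.

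The collagenases cut the triple helix of fibrillar collagens. Mmp13 (collagenase-3, chromosome 9, 7272514 to 7283333), the main interstitial collagenase of mice, had the largest fold change of the 10 genes and also the largest spread. It was at 14.4, 10.8 and 1.18 RPKM in KO 1, KO 2 and KO 3, against 28.6, 64.1 and 19.4 RPKM in WT 1, WT 2 and WT 3. The groups did not overlap, WT 2 was 3.31 times WT 3, and KO 1 was 12.2 times KO 3. The log2 fold change was -2.09 (SE 0.91), with an edgeR adjusted p of 0.629 and a DESeq2 adjusted p of 0.216. Leaving out KO 3 gave -1.57, and leaving out WT 2 as well gave -0.94. These are the 2 libraries at the ends of its range. With KO 1 alone left out it was -2.73, and with WT 2 alone left out -1.45. Mmp8 (collagenase-2, chromosome 9, 7558429 to 7568486), stored in neutrophil granules, was at 1.20, 0.463 and 0.273 RPKM in KO 1, KO 2 and KO 3, against 1.04, 1.43 and 1.32 RPKM in WT 1, WT 2 and WT 3. KO 1 was above WT 1, so the groups overlapped, and KO 2 and KO 3 were below all others, with 26 and 17 counts. Its log2 fold change was -0.97 (SE 0.55), with an edgeR adjusted p of 0.696. It was -1.85 when KO 1 was left out, -0.61 when KO 3 was and -0.52 when WT 2 and KO 3 were. Of 9 neutrophil markers 5 were tested, 4 of them with lower values in KO (39.1% of all genes), and 0 passed. Without WT 2 and KO 3 it was 3 of 5 (49.5% of all genes). The receptor genes Csf3r and Cxcr2 were at 9.90 ± 2.74 CPM in KO and 21.8 ± 4.92 CPM in WT for Csf3r and at 0.174 ± 0.231 CPM in KO and 1.59 ± 1.19 CPM in WT for Cxcr2, and Ltf at 2.501, 86.4 and 60.6 CPM in KO 1, KO 2 and KO 3, against 7.41, 2.96 and 9.51 CPM in WT 1, WT 2 and WT 3. The granule genes Mpo, Elane and Camp were at 0 to 0.386 CPM in every library, and S100a8, which monocytes also express, was at 1.29, 3.14 and 0.867 CPM in KO 1, KO 2 and KO 3, against 1.64, 4.27 and 2.59 CPM in WT 1, WT 2 and WT 3.

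Mmp12 (macrophage elastase, chromosome 9, 7347374 to 7360461), which cuts elastin and is a product of macrophages, was at 151, 111 and 13.2 RPKM in KO 1, KO 2 and KO 3, against 97.9, 127 and 197 RPKM in WT 1, WT 2 and WT 3. KO 1 was above WT 1 and WT 2, whereas KO 3 was far below all other libraries. The log2 fold change was -0.62 (SE 0.80), with an edgeR adjusted p of 0.906. It depended on single KO libraries in both directions, at -0.10 without KO 3 and -1.25 without KO 1. Set against the summed RPKM of 10 macrophage markers, Mmp12 was at 20.1%, 16.2% and 4.31% of that sum in KO 1, KO 2 and KO 3 and at 9.82%, 11.98% and 16.6% in WT 1, WT 2 and WT 3. In KO 3 Mmp12 was thus low also relative to macrophage markers, while KO 1 had the highest value of the 6.

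Mmp14 (membrane-type 1 MMP, chromosome 14, 55050441 to 55060095) sits in the cell membrane, cuts fibrillar collagen and activates pro-MMP2 together with Timp2. It was at 54.1, 57.6 and 22.1 RPKM in KO 1, KO 2 and KO 3, against 83.6, 76.6 and 87.3 RPKM in WT 1, WT 2 and WT 3. Mmp19 (chromosome 10, 128227966 to 128237880), a secreted protease that acts on basement membrane proteins, was at 16.3, 15.1 and 5.08 RPKM in KO 1, KO 2 and KO 3, against 21.3, 21.5 and 22.7 RPKM in WT 1, WT 2 and WT 3. For both genes every KO library lay below every WT library, the WT values lay within 1.14-fold and 1.06-fold ranges, and KO 3 was the lowest of the 6. The log2 fold changes were -0.89 (SE 0.36) for Mmp14 and -0.84 (SE 0.42) for Mmp19, with edgeR adjusted p of 0.617 and 0.669. Without KO 3 they were -0.56 and -0.47.

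Mmp14 and Mmp19 had the most alike profiles of the 45 pairs among the 10 genes. Likeness was measured as the root-mean-square difference of log2 CPM over the 6 libraries, each gene centred on its own mean and with a prior count of 2, and it was 0.119 for this pair. It was 0.226 for Mmp3 and Mmp19 and 0.228 for Mmp3 and Mmp14. Mmp9 and Mmp13 were the least alike, at 1.89. Among 14706 other genes with a mean of at least 1 CPM, those closest to Mmp3 were Snx20, Il21r and Ap1s3, at 0.124, 0.161 and 0.162, where the median gene was at 0.790. Closest to Mmp12 were Gm14461, the vacuolar ATPase subunit gene Atp6v0d2 and B3gnt7, at 0.164, 0.196 and 0.198 (median gene 1.31). Atp6v0d2 was at 143, 94.7 and 13.0 CPM in KO 1, KO 2 and KO 3 and at 128, 114 and 195 CPM in WT 1, WT 2 and WT 3, with the same low KO 3 as Mmp12. Closest to Mmp2 were the matrix protein gene Tgfbi, the kinetochore gene Ndc80 and Ildr2, at 0.0632, 0.0633 and 0.0710 (median gene 0.478). With 6 libraries, close profiles describe these samples only.

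**Figure D3:**
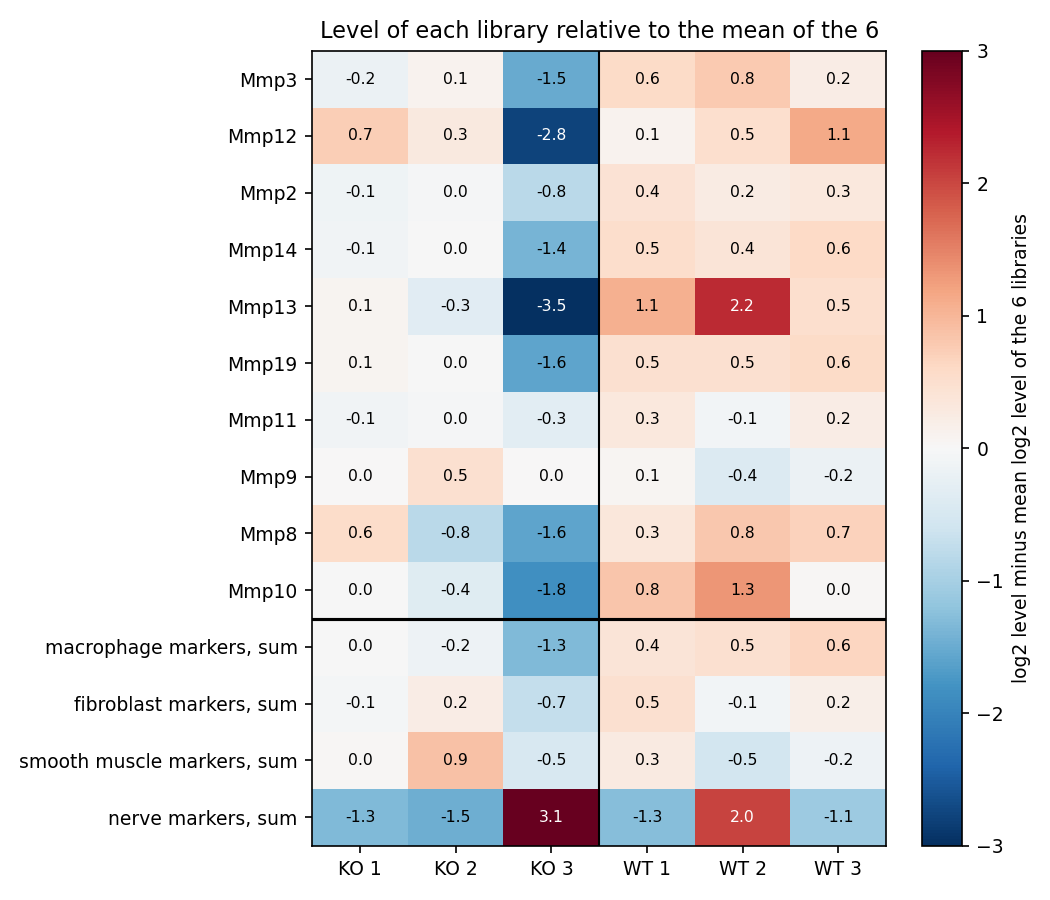
Log2 level of each library minus the mean log2 level of the 6 libraries, for the 10 MMP genes (CPM, above the line) and for the summed RPKM of 4 marker lists (below it), with KO libraries left and WT libraries right; colours stop at ± 3 and the numbers are the values. KO 3 has the lowest value for 9 of 10 MMP genes and for macrophage and fibroblast markers, and the highest for nerve markers.

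Of the 10 genes, Mmp13, Mmp12, Mmp3, Mmp10 and Mmp8 lie in 1 cluster of 10 MMP genes on chromosome 9, which spans 426903 bases in mm9 (7272514 to 7699416), and neighbours in it had very different levels. In genomic order the cluster runs Mmp13, Mmp12, Mmp1b, Mmp3, Mmp1a, Mmp10, Mmp8, Mmp27, Mmp20 and Mmp7. Mmp1a and Mmp1b are the mouse relatives of interstitial collagenase. Mmp1b and Mmp7 had 0 counts in all 6 libraries, which allows a level of up to 0.0683 RPKM for Mmp1b and 0.155 RPKM for Mmp7 (3 counts, the highest limit over the 6 libraries, counting error only). Mmp1a had 2 counts in WT 2 alone, and Mmp20, an enamel protease, had 2 counts in WT 3 alone. Mmp1a was thus near 0 in every library while Mmp3, the next gene in the cluster, was at 77.3 to 376 RPKM.

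**Figure D4:**
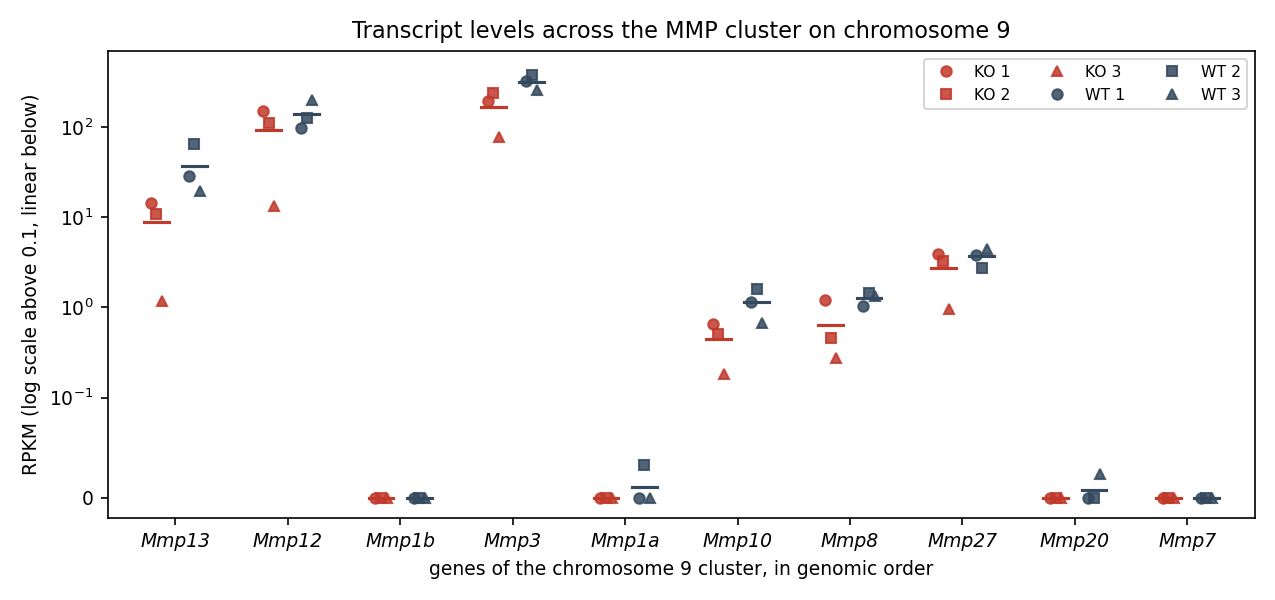
RPKM of the 10 MMP genes of the chromosome 9 cluster in genomic order (log scale above 0.1, linear below), KO left of WT; symbols are libraries 1, 2 and 3 of each group, and bars are group means. Mmp13, Mmp12 and Mmp3 stand at 1.18 to 376 RPKM, while Mmp1b, Mmp1a, Mmp20 and Mmp7 are at or near 0.

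Promoters are shown because several genes of this cluster are textbook targets of AP-1 (Fos and Jun dimers), which binds TGANTCA. Sequences are the 100 bases before the annotated start, from RefSeq (build GRCm38.p6), 5′ to 3′, with TGANTCA in capitals. The motif reads the same on both strands, and capital letters mark no other feature. The promoter table held 7 of the 10 genes and not Mmp2, Mmp9 and Mmp19. For Mmp12, which has 2 annotated starts, the downstream one is shown, and Mmp1a stands for a gene of the cluster with almost no reads.
Mmp3 (chr9:7445722-7445821, plus strand): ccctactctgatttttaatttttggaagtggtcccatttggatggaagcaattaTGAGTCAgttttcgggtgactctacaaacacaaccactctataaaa
Mmp10 (chr9:7502242-7502341, plus strand): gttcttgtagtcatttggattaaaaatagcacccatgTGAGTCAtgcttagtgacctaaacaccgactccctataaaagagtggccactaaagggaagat
Mmp12 (chr9:7347274-7347373, plus strand): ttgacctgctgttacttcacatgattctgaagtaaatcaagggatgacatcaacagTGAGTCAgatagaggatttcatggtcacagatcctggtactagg
Mmp13 (chr9:7272414-7272513, plus strand): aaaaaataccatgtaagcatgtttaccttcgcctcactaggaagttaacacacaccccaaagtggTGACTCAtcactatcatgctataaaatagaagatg
Mmp8 (chr9:7558329-7558428, plus strand): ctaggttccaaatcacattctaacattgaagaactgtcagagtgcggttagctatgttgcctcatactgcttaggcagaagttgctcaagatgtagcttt
Mmp14 (chr14:54431498-54431597, plus strand): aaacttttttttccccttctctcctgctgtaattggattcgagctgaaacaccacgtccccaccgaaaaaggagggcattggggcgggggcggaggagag
Mmp1a (chr9:7464041-7464140, plus strand): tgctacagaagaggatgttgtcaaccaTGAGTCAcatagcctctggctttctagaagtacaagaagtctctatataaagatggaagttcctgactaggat
The 7 of the 10 genes in the promoter table, which include Mmp11 (not shown) and not Mmp1a, had 8 windows. The motif was found in 4 of the 8, for Mmp3, Mmp10, Mmp12 and Mmp13, beginning 46, 63, 44 and 35 bases before the start in this order, and not for Mmp8, Mmp11 and Mmp14. For Mmp12 this is the downstream start, and the window of the upstream start (chr9:7344297-7344396) did not hold it. Over all 32851 promoter windows of this length 2.73% held it. The 4 genes with the motif were at very different levels, with 169 ± 81.9 RPKM of Mmp3 in KO and 318 ± 60.5 RPKM in WT, against 0.444 ± 0.238 RPKM of Mmp10 in KO and 1.14 ± 0.470 RPKM in WT. Among the other MMP genes 4 of 11 in the promoter table held it in a window, namely Mmp1a (73 bases before the start), Mmp1b, Mmp7 and Mmp20, which lie in the same cluster and had 0 to 2 counts in each library. A match describes these letters and does not show that a factor binds there.

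Of 13 transcription factors known to act on MMP promoters, 12 were tested and 12 had values below 0 for KO over WT, beside 39.1% of all genes. Most were small (median log2 -0.19, all genes tested 0.07), and 0 passed in edgeR or DESeq2. Without KO 3 the count was 7 of 12 (50.5% of all genes), and without WT 2 and KO 3 it was 8 of 12 (49.5%), median -0.08. The smallest unadjusted p were those of Spi1 (PU.1, a factor of myeloid cells), Junb and Runx2. Spi1 was at 18.2 ± 6.92 CPM in KO and 34.9 ± 5.71 CPM in WT (SD, n = 3 each), log2 fold change -0.94 (SE 0.32), and Junb, an AP-1 subunit, at 56.0 ± 15.5 CPM in KO and 83.6 ± 3.69 CPM in WT, log2 fold change -0.58 (SE 0.22). For both genes every KO library was below every WT library, which held for 2 of the 12 and for 8.38% of all genes. The edgeR adjusted p were 0.587 and 0.605. Runx2, which drives Mmp13 in bone and cartilage, was at 6.98 ± 2.26 CPM in KO and 10.6 ± 3.42 CPM in WT, with overlapping groups. Jun and Fos had log2 fold changes of -0.07 and -0.43.

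Of 10 cytokine and receptor genes known to induce MMPs, 8 were tested and 8 had lower values in KO (39.1% of all genes, median log2 fold change -1.04), and 0 passed. Without WT 2 and KO 3 it was 7 of 8 (49.5% of all genes), median -0.50. Cd40, a receptor through which T cells induce MMPs in macrophages, was at 4.34 ± 0.366 CPM in KO and 8.63 ± 2.11 CPM in WT, log2 fold change -0.99 (SE 0.22), edgeR adjusted p 0.587, DESeq2 adjusted p 0.0510. Il1b was at 2.76, 5.11 and 1.38 CPM in KO 1, KO 2 and KO 3 and at 9.05, 27.8 and 7.19 CPM in WT 1, WT 2 and WT 3. Il6 was at 1.68, 3.62 and 0.315 CPM in KO 1, KO 2 and KO 3 and at 10.5, 12.1 and 3.52 CPM in WT 1, WT 2 and WT 3. WT 2 was the highest library for both, as it was for Mmp3, Mmp8, Mmp10 and Mmp13. Without WT 2 and KO 3 the log2 fold changes were -0.72, -1.05 and -1.40 for Cd40, Il1b and Il6.

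Genes of pro-MMP activation were mixed, with 6 higher and 5 lower of 11 tested (14 listed), a median log2 fold change of 0.12 and 0 passing. Over all genes tested 39.1% were lower. Without WT 2 and KO 3, 8 of 11 were lower (median -0.28), beside 49.5% of all genes. In 3 of the 11 every KO library was below every WT library, beside 8.38% of all genes, and in the other 8 the groups overlapped. These 3 also had the smallest unadjusted p. Furin, the protease that activates Mmp11 and Mmp14, was at 92.3 ± 21.3 CPM in KO and 125 ± 11.4 CPM in WT, log2 fold change -0.44 (SE 0.19). Plau (urokinase) was at 48.2 ± 28.5 CPM in KO and 88.5 ± 14.8 CPM in WT, log2 fold change -0.88 (SE 0.52), and its receptor gene Plaur at 13.7 ± 5.26 CPM in KO and 21.3 ± 0.0218 CPM in WT, log2 fold change -0.64 (SE 0.31). The edgeR adjusted p were 0.632, 0.717 and 0.663.

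The inhibitor list was mixed. Of 8 tested, 5 had positive and 3 negative log2 fold changes (median 0.18), beside 39.1% negative over all genes. When WT 2 and KO 3 were left out, 3 of 7 were negative, beside 49.5% of all genes. Pzp, a plasma protease inhibitor, was at 2.25 ± 0.925 CPM in KO and 1.08 ± 0.468 CPM in WT. Timp1 was at 78.9 ± 51.7 CPM in KO and 149 ± 28.4 CPM in WT, log2 fold change -0.92 (SE 0.54), with overlapping groups. Timp2, which takes part in the activation of pro-MMP2 by Mmp14, was at 717 ± 169 CPM in KO and 947 ± 108 CPM in WT, log2 fold change -0.40 (SE 0.22), and Timp3 at 1458 ± 302 CPM in KO and 1545 ± 364 CPM in WT, log2 fold change -0.08 (SE 0.26). Timp4 alone of the list had every KO library above every WT library, which held for 8.33% of all genes. Timp4 was at 11.7 ± 2.03 CPM in KO and 3.71 ± 0.628 CPM in WT, log2 fold change 1.66 (SE 0.22), edgeR adjusted p 0.587 and DESeq2 adjusted p 8.61e-07.

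Of the 13 other MMP genes, 8 were tested, with 5 positive and 3 negative log2 fold changes, a median of 0.07 (-0.16 without KO 3) and 0 passing, and the groups overlapped for all 8. Over all genes tested 39.1% were negative. The smallest unadjusted p were those of Mmp25 (a leukocyte MMP, 0.886 ± 0.513 CPM in KO and 1.88 ± 0.801 CPM in WT), Mmp17 (36.5 ± 11.6 CPM in KO and 29.8 ± 2.28 CPM in WT) and Mmp28 (13.1 ± 0.746 CPM in KO and 11.9 ± 1.17 CPM in WT), with log2 fold changes of -1.09, 0.29 and 0.14. Mmp15, named after its values were seen, was high in the libraries with high nerve markers, at 101 CPM in KO 3 and 59.3 CPM in WT 2 and at 12.1 to 13.6 CPM in the other 4 libraries. Mmp23, also named after its values were seen, was at 39.9 ± 13.1 RPKM in KO and 39.7 ± 10.1 RPKM in WT (log2 fold change 0.008).

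All 15 listed matrix substrates of the MMPs had lower values in KO (median log2 fold change -0.53), beside 39.1% of all genes. Without KO 3 it was 13 of 15 (median -0.24), beside 50.5% of all genes. Without WT 2 and KO 3 it was 14 of 15 (median -0.38), beside 49.5%. This list too was chosen with earlier results of these data known, so its counts describe and do not test. In 8 of the 15 every KO library was below every WT library (8.38% of all genes), and 0 passed in edgeR or DESeq2. Acan (aggrecan, a target of Mmp3) was at 45.9 ± 24.2 CPM in KO and 90.0 ± 19.7 CPM in WT, Lum (lumican) at 778 ± 426 CPM in KO and 1666 ± 135 CPM in WT and Tnc (tenascin C) at 248 ± 146 CPM in KO and 554 ± 9.51 CPM in WT (SD, n = 3 each). Their log2 fold changes were -0.97 (SE 0.40), -1.10 (SE 0.48) and -1.16 (SE 0.52), and the edgeR adjusted p were 0.617, 0.630 and 0.636.

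Marker sums differed between libraries, some in the same direction as most of the 10 MMP genes. Beside the counts below, 39.1% of all genes tested were lower in KO with all 6 libraries, and the rest were higher. The share that was lower was 50.5% without KO 3, 42.1% without WT 2 and 49.5% without both. The summed RPKM of 10 macrophage markers was 754, 686 and 307 in KO 1, KO 2 and KO 3 and 997, 1063 and 1189 in WT 1, WT 2 and WT 3, without overlap, and 9 of the 10 markers had lower values in KO (9 of 10 without WT 2 and KO 3). The exception was Mertk, a receptor for apoptotic cells, with a log2 fold change of 0.01, and without WT 2 all 10 were below 0. In 9 of the 10 every KO library was below every WT library (8.38% of all genes), and Mertk overlapped. In edgeR 7 of the 10 had lower values at an unadjusted p under 0.05 (3.98% of all genes), and 0 passed after adjustment. Aif1, Itgam and Fcgr1 had the smallest unadjusted p, with log2 fold changes of -1.08 (SE 0.24), -0.75 (SE 0.17) and -0.91 (SE 0.24) and edgeR adjusted p of 0.587, 0.587 and 0.587. DESeq2 called Aif1 alone of the list (adjusted p 0.0344). The sum of 6 chondrocyte markers was 54.6, 95.3 and 33.1 RPKM in KO 1, KO 2 and KO 3 and 126, 90.3 and 113 RPKM in WT 1, WT 2 and WT 3. Of the 6, 5 were lower in KO, 4 without KO 3 and 5 without WT 2 and KO 3. For Sox9, Acan and Col2a1 every KO library was below every WT library (8.38% of all genes tested). Comp, Chad and Col10a1 overlapped, with log2 fold changes of -0.68, -0.01 and 0.0004. Fibroblast marker sums of 1998, 2449.7 and 1271 RPKM in KO 1, KO 2 and KO 3 and 2942, 1964 and 2352 RPKM in WT 1, WT 2 and WT 3 overlapped, with 4 of 8 lower. This count moved with the libraries, to 3 of 8 without KO 3, 7 of 8 without WT 2 and 6 of 8 without both. Smooth muscle markers were higher in 7 of 7 (6 of 7 without WT 2), with overlapping sums of 1886 to 4820.2 RPKM in KO and 1794 to 3179.6 RPKM in WT. Adipocyte markers, among them Cidea and Fabp4, were higher in 6 of 6, at 885 to 1284 RPKM in KO and 249 to 763 RPKM in WT. Endothelial sums were 218 to 331 RPKM in KO and 171 to 306 RPKM in WT, and those of skeletal muscle markers 7.18 to 116 RPKM in KO and 4.72 to 50.1 RPKM in WT. The part of these cell types in the MMP values was not tested.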

How the data were processed

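RNA was extracted from flash-frozen brachiocephalic arteries with Trizol, and libraries followed Illumina protocols, per the labels' protocols. The authors deposited raw read counts per gene, per the file headers from featureCounts 1.4.6-p4, which summed exons of the UCSC mm9 annotation by gene name; the command set no strand, paired-read or multi-mapping option. CASAVA, STAR (given as version 3.0), Subread and DESeq2 are named in the submitters' processing notes. Of the alignments, 32.6% to 36.9% were assigned to genes and 29.9% to 33.4% were left out as multi-mapping, per the deposited summary. Without strand, reads of a gene and an antisense partner cannot be told apart.

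Groups and replicate numbers came from the sample titles. KO was set against WT over 15937 genes in R 4.3.3 with edgeR 4.0.16 (quasi-likelihood F test, two-sided, TMM, filterByExpr with a minimum count of 10, Benjamini-Hochberg threshold 0.05). Standard errors were derived from the F statistic. Alternatives were other scalings, no filter, DESeq2 1.42.0, limma-voom (limma 3.58.1), a replicate block and leaving out libraries. The fit was also run on simulated counts in which no library stood apart, so that run does not show its power in these libraries. The fits without both WT 2 and KO 3, and the counts of each list without these libraries, were added after seeing the data. RPKM used the exon length of the count table. Named genes were the 10 MMPs, Timp1 to Timp4, up to 3 genes of each list with the smallest unadjusted p, and the 3 genes of nearest profile to each of the 3 highest MMPs; other genes were named after their values were seen. The members and lists were chosen with earlier results of these data known. The labels give 3 animals per group, so p-values measure the spread between animals. Shared 50-base words were counted in GENCODE M21 transcripts.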

Additional observations from a re-analysis of the deposited data

How the results depend on the processing

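Over 13 alternatives the 10 MMP genes gave 130 values, and all 130 kept the direction and the side of the adjusted threshold of the fit reported above; with 3 animals per group, a gene that does not pass is not shown to be unchanged. In edgeR with TMM and all 6 libraries, 634 genes were lower and 641 higher at an unadjusted p under 0.05. The number of genes called over the whole table was 0 in edgeR with TMM, size factors, total counts and no filter, 0 in limma-voom, and 0 with each library left out (range 0 to 0). It was 53 in DESeq2 and 1 in edgeR without WT 2 and KO 3, an alternative chosen after seeing the data, and the cause was not tested. A fit with a replicate block called 0 genes. Deviations from group means correlated at 0.43, -0.68 and -0.58 for libraries numbered 1, 2 and 3, across genes. KO 3 and WT 2, the libraries with high nerve markers, correlated at 0.77. With 1 such library in each group, these values cannot tell whether the numbers pair the animals. Over the alternatives the log2 fold change ran from -2.73 to -0.94 for Mmp13, from -1.25 to -0.10 for Mmp12 and from -1.12 to -0.56 for Mmp14. The detected genes numbered 9 of 10 at a minimum of 10 counts, 10 at 5 counts and 8 at 20 counts, and 9 to 10 with each library left out. Depth limits Mmp8, Mmp9 and Mmp10 most, which had 8 to 113 counts per library.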
